A study of Rattus norvegicus with 6 samples.

Results

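The desmosome genes described here are Dsg1, Dsg2, Dsg3, Dsc2, Dsc3, Dsp, Jup, Perp, Pkp1 and Pkp3, which are 10 of the 34106 genes in the count table. They were matched by exact gene symbol, and all 10 were found. They were chosen with their difference between injured and uninjured nerve already known, so that difference is given for them as a description and carries no test. Bulk RNA-seq was performed on the inferior alveolar nerve (IAN), which carries sensation from the mandible, lower teeth and lip, taken on day 14 after surgery. The 3 IANX libraries came from male Sprague–Dawley rats in which the IAN and the mental nerve were cut through, leaving a gap between the stumps that was not sutured. To reach these nerves, the periosteum was detached and the surface of the mandibular bone was removed. The 3 Sham libraries came from rats of the same strain and sex. In these, the cheek skin and the masseter muscle were incised and the nerves were left intact. Removal of bone is not named for the sham surgery, so nerve cut and bone removal cannot be told apart here. The rats were 6 to 7 weeks old at purchase, and each library is a biological replicate.

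Desmosomes are spot-like junctions that hold neighboring epithelial cells together by linking their intermediate filaments. Desmogleins (Dsg) and desmocollins (Dsc) are cadherins that span the membrane and bind those of the next cell. Inside the cell they hold plakoglobin (Jup) and plakophilins (Pkp), which carry desmoplakin (Dsp), and desmoplakin binds keratin filaments. Perp is a small membrane protein that desmosomes of stratified epithelia need in mice. Desmosomes are abundant in skin, oral mucosa and the enamel organ of the tooth, and in heart muscle, and they are not a known feature of Schwann cells or of axons.

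The libraries held 13988750 to 16440720 counted reads in IANX, against 14630127 to 17105402 in Sham. Levels are CPM (counts of a gene relative to its library), scaled by TMM factors (trimmed mean of M values), and fold changes are IANX over Sham from edgeR fitted to the 15374 genes that passed its filter on low counts. The injured libraries were not alike. Across tested genes IANX 1 and IANX 3 correlated at 0.959, whereas IANX 2 correlated with them at 0.902 and 0.914, and the Sham libraries correlated with each other at 0.968 to 0.974, where genes are not independent replicates. For the nerve label, 4 genes of myelinating Schwann cells (Mbp, Pmp22, Prx and Mag) summed to 1453 to 5941 CPM in IANX, against 66851 to 77553 CPM in Sham. The 5 Schwann cell genes Sox10, S100b, Ngfr, Cdh19 and Erbb3 summed to 511, 2096 and 692 CPM in IANX 1, 2 and 3. In Sham they summed to 4588 to 4946 CPM, and the mean of Ngfr alone was higher in IANX. Lower sums in IANX cannot tell a change within the nerve from a smaller part of nerve in the sample.

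Of the desmosome genes, 9 were nearly silent in every Sham library and were high in IANX 1 and IANX 3. These 9 genes, all but Jup, summed to 583, 12.7 and 1332 CPM in IANX 1, 2 and 3, against 2.97, 3.58 and 0.812 CPM in Sham 1, 2 and 3. No Sham library held more than 16 reads of any of them. IANX 2 stood between, at 5.17 times the Sham mean for the sum, while the mean of IANX 1 and IANX 3 was 75.4 times IANX 2. In bulk tissue, fewer cells of a type and less RNA per cell cannot be told apart. Jup, in contrast, was read at 86.9 to 150 CPM in IANX, against 119 to 128 CPM in Sham.

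**Figure D1:**
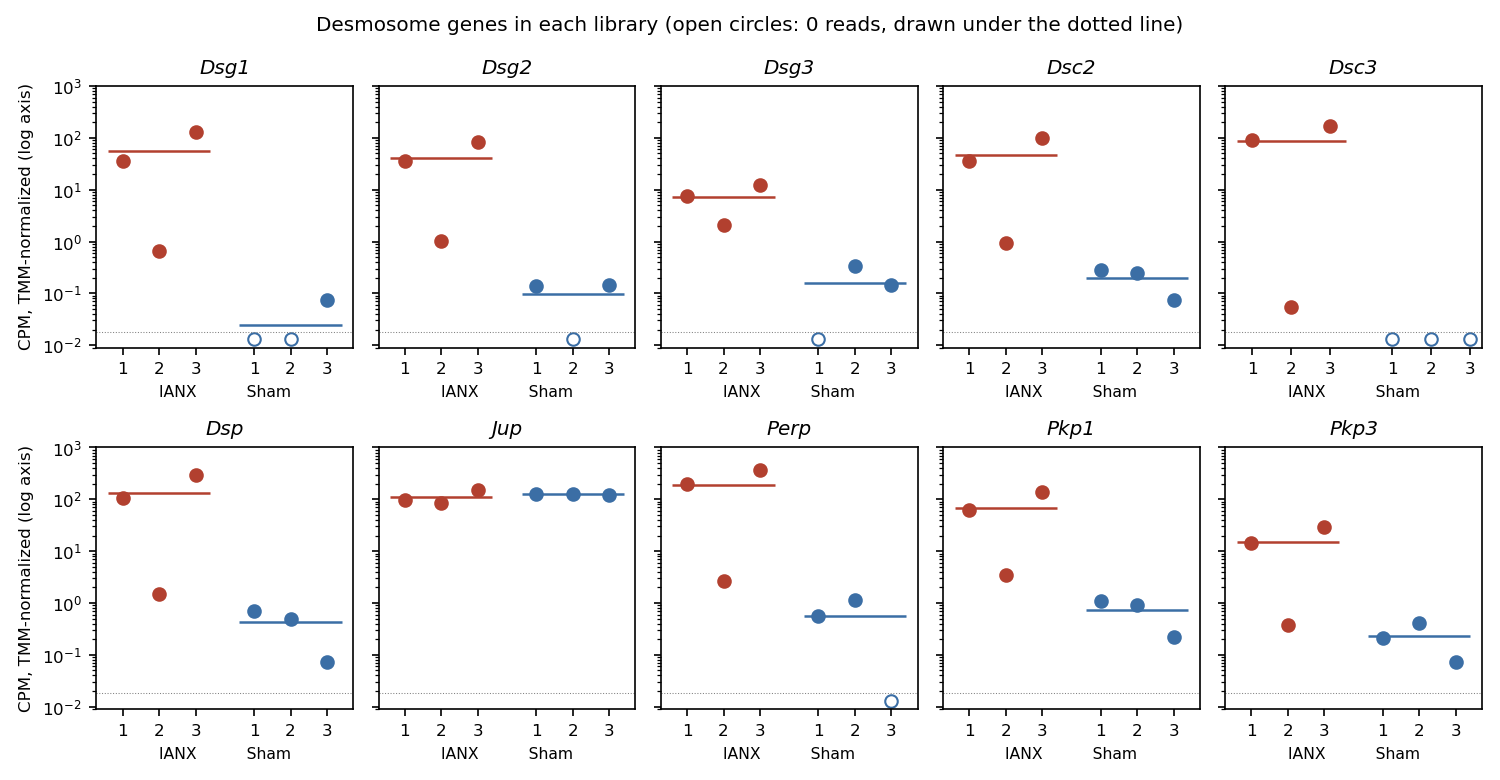
TMM-normalized CPM of each desmosome gene on a log axis, with 1 point per library (IANX 1, 2 and 3 on the left of each panel, Sham 1, 2 and 3 on the right) and a line at the group mean. Libraries with 0 reads are open circles under the dotted line. For the 9 genes other than Jup, IANX 1 and IANX 3 lie at 7.64 to 374 CPM, IANX 2 lies at 3.49 CPM or lower and the Sham libraries lie at 1.17 CPM or lower.

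The median over the 10 genes of the log2 ratio of mean CPM was 8.07, or 270-fold, with Dsc3 entered at a lower bound. Over all tested genes the median log2 fold change was 0.08. Each IANX library was above every Sham library for 8 of the 10 genes, of which 7 passed the filter on low counts. The exceptions were Jup and Pkp3, and in Dsc3 IANX 2 held 1 read against 0 in Sham. Among all tested genes 27.0% had each IANX library above every Sham library. Since the desmosome genes were selected on this contrast, nothing is read from the comparison. Leaving out IANX 3 gave a median log2 ratio of 6.75, leaving out IANX 2 gave 8.62, and IANX 2 alone against the Sham libraries gave 2.21. Of the 10 genes, 8 passed the filter on low counts. Dsc3 and Pkp3 did not pass, because only IANX 1 and IANX 3 held enough reads.

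The desmosomal cadherins lie together on chromosome 18. In the build of the files (rn6) they fall into 2 stretches, with Dsc3 (chr18:11753047-11789708), Dsc2 (chr18:11826706-11858754) and Dsg1 (chr18:12008759-12038053) in the first and Dsg2 (chr18:15579315-15637715) and Dsg3 (chr18:15650526-15688284) in the other. RefSeq places them side by side in the newer build GRCr8, in the order Dsc3, Dsc2, Dsc1, Dsg1, Dsg4, Dsg3 and Dsg2. The plaque genes are scattered, with Dsp at chr17:27286796-27334379, Jup at chr10:88279632-88307412, Pkp1 at chr13:52705174-52752997 and Pkp3 at chr1:213886775-213897783. Perp lies at chr1:14224393-14236846. All coordinates of this paragraph are those of rn6.

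The 250 bases before the annotated start of a gene were read from the RefSeq promoter table of GRCr8, in which 9 of the 10 genes matched. Both strands were searched for the GC box GGGCGG, the AP-1 motif TGANTCA, the AP-2 motif GCCNNNGGC, the Grainyhead-like motif AACNGGTT, the TATA box TATAAA and, by name, a single p53-family decamer. The promoters of 4 genes are shown to set different patterns side by side. They are Perp and Dsp, which had the highest levels in IANX 1 and IANX 3, Dsc3, which held 1 read in IANX 2 and 0 in Sham, and Jup, the only gene of the 10 with more than 16 reads in a Sham library. Capitals mark matches to any motif other than the TATA box, on either strand.
Perp: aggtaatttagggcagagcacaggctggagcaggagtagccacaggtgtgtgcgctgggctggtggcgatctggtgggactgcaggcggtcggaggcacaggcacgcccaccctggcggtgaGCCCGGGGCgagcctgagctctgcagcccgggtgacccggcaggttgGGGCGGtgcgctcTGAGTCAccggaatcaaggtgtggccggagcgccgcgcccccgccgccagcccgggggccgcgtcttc
Dsp: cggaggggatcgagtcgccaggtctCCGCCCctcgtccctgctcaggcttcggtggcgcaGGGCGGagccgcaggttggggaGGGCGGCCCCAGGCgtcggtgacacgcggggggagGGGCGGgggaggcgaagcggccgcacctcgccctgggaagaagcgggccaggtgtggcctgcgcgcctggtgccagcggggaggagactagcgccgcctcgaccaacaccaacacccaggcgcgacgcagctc
Dsc3: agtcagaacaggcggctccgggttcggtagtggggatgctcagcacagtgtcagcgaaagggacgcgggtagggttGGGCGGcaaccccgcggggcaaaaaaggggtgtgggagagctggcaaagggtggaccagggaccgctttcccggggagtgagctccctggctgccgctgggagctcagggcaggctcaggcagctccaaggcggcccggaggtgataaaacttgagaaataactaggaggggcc
Jup: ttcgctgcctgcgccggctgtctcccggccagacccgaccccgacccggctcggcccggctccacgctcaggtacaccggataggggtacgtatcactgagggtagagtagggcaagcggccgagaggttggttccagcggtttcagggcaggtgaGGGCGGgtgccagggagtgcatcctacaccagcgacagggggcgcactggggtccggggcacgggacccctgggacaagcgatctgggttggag

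These windows are chr1:15361534-15361783, plus strand for Perp, chr17:26877122-26877371, minus strand for Dsp, chr18:11688872-11689121, minus strand for Dsc3 and chr10:85827430-85827679, minus strand for Jup, all in GRCr8 and each printed on the strand of its gene. A GC box was present in 7 of the 9 promoters (Dsg2, Dsc2, Dsc3, Dsp, Jup, Perp and Pkp1) and in 32.4% of 27456 RefSeq promoters of the same length. The AP-1 motif was found in Perp only among the 9, against 6.36% of all promoters, and the AP-2 motif in Dsp and Perp, against 13%. In Dsp the AP-2 match overlaps a GC box, so both are in a single run of capitals. The p53-family decamer was found in Dsg3 only among the 9 (6.56% of all promoters), the Grainyhead-like motif in none (1.65%) and the TATA box in none (13.1%). Dsc3, with no read in Sham, and Jup, read steadily, were not set apart by these letters, since both held 1 GC box and no other match. The genes that were nearly silent in Sham differed among themselves, from no match in Dsg1 to 4 GC boxes in Dsp. The G and C share of the windows had a median of 68.4% over the 9 genes and of 52.0% over all promoters. A match describes the letters of the window and not a bound site.

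The desmogleins form the outer adhesive layer of the junction, and in skin Dsg1 marks the upper layers, Dsg3 the lower layers, while Dsg2 is widespread among epithelia. Dsg1 was read at 36.4, 0.654 and 129 CPM in IANX 1, 2 and 3, against 0, 0 and 0.0738 CPM in Sham 1, 2 and 3. Dsg2 was read at 35.3, 1.03 and 83.9 CPM in IANX, against 0.138, 0 and 0.148 CPM in Sham. Dsg3 was the lowest of the desmogleins in IANX 1 and IANX 3, with 7.64, 2.07 and 12.1 CPM in IANX and 0, 0.333 and 0.148 CPM in Sham. In each of these genes all IANX libraries lay above all Sham libraries, and IANX 2 lay nearer to Sham than to the other IANX libraries in CPM. Dsg1 had 2831 reads in IANX and 1 read in Sham, a ratio of 2142 after scaling, whose 95% counting interval ran from 384 to 84652. The fitted log2 fold change was 8.54 ± 1.78 for Dsg2 and 5.50 ± 0.99 for Dsg3 (SE, n = 3 each).

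The desmocollins pair with the desmogleins across the gap between cells. Dsc2 is the widespread desmocollin, and Dsc3 is found mostly in the lower layers of stratified epithelia. Dsc2 had 36.4, 0.926 and 101 CPM in IANX 1, 2 and 3, against 0.276, 0.250 and 0.0738 CPM in Sham 1, 2 and 3, and its fitted log2 fold change was 7.79 ± 1.71 (SE). Dsc3 had 92.0, 0.0545 and 173 CPM in IANX, which in IANX 2 was a single read, and no read in any Sham library. After scaling, the reads of IANX 1 and IANX 3 together were 2416 times those of IANX 2 for Dsc3, with a 95% counting interval of 433 to 95430 since IANX 2 held 1 read. For the other 9 genes the upper limit of the same ratio was 242 or lower. Its mean of 88.4 ± 86.5 CPM in IANX (SD, n = 3) was at least 1179-fold higher than Sham, where a total of 3 Sham reads (0.0749 CPM) stands in for 0. By counting error alone, the lower 95% limit of the ratio was 932. Both values rest on IANX 1 and IANX 3, since IANX 2 lay below that floor.

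IANX 2 differed from the other injured libraries in which cadherin its few reads came from. Dsg3 made up 9.64% of the reads of Dsg1, Dsg2 and Dsg3 in IANX 1 (95% Clopper-Pearson interval 8.14 to 11.3%), 55.1% in IANX 2 (42.6 to 67.1%) and 5.38% in IANX 3 (4.68 to 6.14%). In the Sham libraries together it was 6 of 11 reads, or 54.5% (23.4 to 83.3%). The Dsg3 share of IANX 2 was therefore above those of IANX 1 and IANX 3 beyond counting error, and within the wide interval of Sham. Dsc3 made up 71.7% of the reads of Dsc2 and Dsc3 in IANX 1 (69.8 to 73.5%), 5.56% in IANX 2 (1 of 18 reads, 0.141 to 27.3%) and 63.2% in IANX 3 (61.8 to 64.6%), and 0 of 8 reads in Sham (0 to 36.9%). The intervals cover counting error only, and reads without molecular identifiers are not independent molecules. The shares are not corrected for gene length, which is the same in every library.

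**Figure D2:**
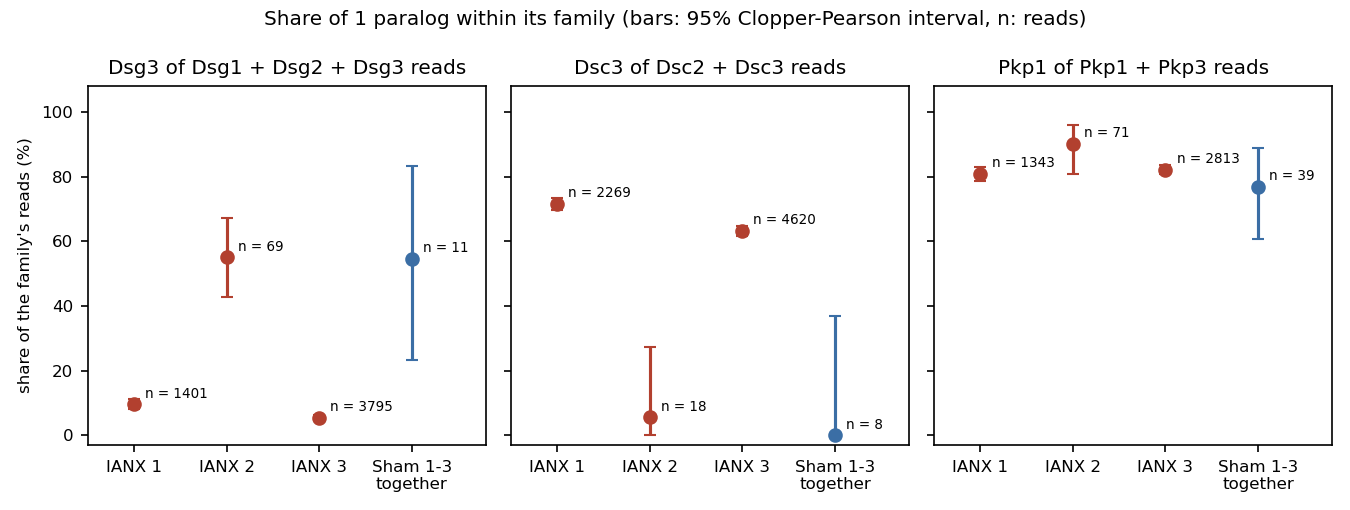
Share of the reads of a family that came from Dsg3, Dsc3 or Pkp1, in percent, for IANX 1, IANX 2, IANX 3 and the 3 Sham libraries together. Bars are 95% Clopper-Pearson intervals and n is the number of reads of the family. IANX 2 sits apart from IANX 1 and IANX 3 for Dsg3 (55.1%) and Dsc3 (5.56%), and nearer to them for Pkp1 (90.1%).

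Plakophilins sit in the plaque and draw desmoplakin to the membrane. Pkp1 is the plakophilin of stratified and complex epithelia, and Pkp3 is found in most epithelia. Pkp1 was read at 61.5, 3.49 and 137 CPM in IANX 1, 2 and 3, against 1.10, 0.916 and 0.222 CPM in Sham 1, 2 and 3, with a fitted log2 fold change of 6.48 ± 1.34 (SE). Pkp3 was read at 14.5, 0.381 and 29.8 CPM in IANX, against 0.207, 0.416 and 0.0738 CPM in Sham, so that IANX 2, with 7 reads, lay below Sham 2. The ratio of the group means was 64.0 for Pkp3. Pkp1 gave most reads of the pair everywhere, with 80.9% in IANX 1 (78.7 to 83.0%), 90.1% in IANX 2 (80.7 to 95.9%), 82.2% in IANX 3 (80.7 to 83.6%) and 76.9% in the Sham libraries together (60.7 to 88.9%). These intervals all overlap, unlike those of Dsg3 and Dsc3 between IANX 2 and the other injured libraries.

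Plakoglobin, the product of Jup, is shared with adherens junctions, where it can take the place of beta-catenin, and it is made by many cells that have no desmosomes. Jup was read at 97.4, 86.9 and 150 CPM in IANX 1, 2 and 3, against 128, 127 and 119 CPM in Sham 1, 2 and 3. Its group means were 111 ± 33.9 CPM in IANX and 125 ± 4.76 CPM in Sham (SD, n = 3 each). The groups overlapped, and the fitted log2 fold change was -0.16 ± 0.22 (SE), less than its standard error. The sign depended on the scaling, since with library sizes only it was 0.30, where the median of all tested genes was 0.53. Like the other 9 genes, Jup was higher in IANX 3 than in IANX 1, by 1.54 times (95% counting interval 1.45 to 1.64).

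Desmoplakin binds the plaque to keratin filaments. Dsp had 105, 1.47 and 292 CPM in IANX 1, 2 and 3 and 0.690, 0.50 and 0.0738 CPM in Sham 1, 2 and 3, with a fitted log2 fold change of 8.27 ± 1.85 (SE). Perp, which is a target of the epithelial transcription factor p63 in mice, had 194, 2.61 and 374 CPM in IANX and 0.552, 1.17 and 0 CPM in Sham, with 8.40 ± 1.83 (SE). Both genes had all IANX libraries above all Sham libraries. Their group means were 133 ± 147 CPM in IANX and 0.421 ± 0.316 CPM in Sham for Dsp, and 190 ± 186 CPM in IANX and 0.573 ± 0.583 CPM in Sham for Perp (SD, n = 3 each). The SD in IANX was about as large as the mean.

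Per gene length, in the FPKM (fragments scaled by gene length and by a normalized library size) given with the counts, Perp was the highest of the 10 genes in IANX 1 and IANX 3, with 100 and 193 FPKM. Jup followed in IANX 1 with 21.3 FPKM, whereas in IANX 3 Dsg1 (39.0 FPKM) came before Jup (32.8 FPKM) and Dsc3 (31.5 FPKM). Dsg3 was the lowest in both libraries, with 1.16 and 1.84 FPKM. In IANX 2 and in each Sham library Jup came first, with 19.6 FPKM in IANX 2 and 29.0, 29.2 and 27.0 FPKM in Sham 1, 2 and 3. Every other gene of the group was at 1.40 FPKM or lower in IANX 2 and at 0.631 FPKM or lower in Sham. Of these 10 genes, Jup was thus the only one above 0.631 FPKM in the uninjured nerve. Apart from Jup in Sham, the spread between libraries was larger than the gaps between neighbors in this order.

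IANX 3 exceeded IANX 1 in each of the 10 genes, but not by the same factor. Among the 9 genes other than Jup the ratio was lowest in Dsg3, at 1.58 (95% counting interval 1.27 to 1.98), and highest in Dsg1, at 3.54 (3.24 to 3.88). Dsp (2.78, 2.64 to 2.94) and Dsc2 (2.77, 2.53 to 3.04) lay near each other, as did Perp (1.92, 1.85 to 2.01) and Dsc3 (1.88, 1.77 to 2.0). The intervals of Dsg1 and Perp do not overlap, so the make-up of the desmosome transcripts differed between these libraries beyond counting error. With 1 library on each side this compares libraries and not conditions.

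The same libraries differed in markers of several epithelia. The summed level of 7 enamel genes (Amelx, Ambn, Enam, Amtn, Odam, Klk4 and Mmp20) was 54886, 1593 and 60493 CPM in IANX 1, 2 and 3 and 121, 847 and 107 CPM in Sham 1, 2 and 3. Among them Amelx, Ambn, Enam and Mmp20, which serve enamel secretion, passed the test as higher, while Amtn was at 1.81, 1.53 and 1.3 CPM in IANX, against 0.414, 2.42 and 1.40 CPM in Sham, and Odam and Klk4, which like Amtn belong to enamel maturation, stayed below the filter. The 5 genes of basal stratified epithelium (Krt5, Krt14, Krt15, Tp63 and Col17a1) summed to 1185, 8.33 and 2234 CPM in IANX, against 19.2, 26.1 and 15.1 CPM in Sham. The 5 matched genes of epidermal terminal differentiation (Krt1, Krt10, Ivl, Dsc1 and Tgm3) summed to 8.77, 7.41 and 10.1 CPM in IANX, against 9.32, 9.08 and 7.68 CPM in Sham. Most of this sum was Krt10, at 7.92, 5.45 and 7.82 CPM in IANX, against 8.70, 8.41 and 6.65 CPM in Sham. Krt1 and Krt10 did not pass, and Ivl was at 0 in every library. Tgm3 was read in IANX 2 only (29 reads) and Dsc1 in IANX only (4, 3 and 19 reads).

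The sums kept different ratios between libraries. From IANX 1 to IANX 3 the desmosome genes other than Jup differed by 2.28 times, the basal list by 1.89 times and the enamel list by 1.10 times. The mean of IANX 1 and IANX 3 over IANX 2 was 75.4 for the desmosome genes, 205 for the basal list and 36.2 for the enamel list. In IANX 2 the desmosome sum was 5.17 times the Sham mean, while the basal sum was 0.414 times the Sham mean. That lower basal sum came from Krt5, at 2.4 CPM in IANX 2 against 16.1, 21.1 and 12.0 CPM in Sham 1, 2 and 3. Krt14 (1.58 CPM) and Col17a1 (3.27 CPM) in IANX 2 were instead above every Sham library. Krt15 and Tp63, each at 0.545 CPM in IANX 2, lay within the Sham range. Krt15 was also alike between the groups, with a mean of 0.630 CPM in IANX and 0.639 CPM in Sham. The enamel sum of IANX 2 was above each Sham library, of which Sham 2 was far above the other two. The 4 cardiomyocyte genes (Myh6, Tnnt2, Nppa and Myl7) summed to 8.32, 16 and 13.5 CPM in IANX, against 85.7, 181 and 121 CPM in Sham, and nearly all of the Sham sum was Myh6 (80.8, 176 and 117 CPM). Myh6 was lower (-3.74 ± 0.43, edgeR adjusted p = 0.00136), and Tnnt2 did not pass (-0.40 ± 0.30, edgeR adjusted p = 0.327). Nppa and Myl7 were below the filter. Nppa had no read in IANX and 0, 1 and 0 reads in Sham, and Myl7 had 6 reads in each group. The skeletal muscle markers summed to 623, 61.3 and 91.1 CPM in IANX, against 296, 197 and 48.6 CPM in Sham. The odontoblast genes Dspp and Dmp1, which serve dentin, summed to 1197, 357 and 271 CPM in IANX 1, 2 and 3, against 27.3, 28.9 and 22.0 CPM in Sham 1, 2 and 3. Both were higher (edgeR adjusted p = 0.00364 for Dspp and 0.00383 for Dmp1), and their sum was lowest in IANX 3, where the desmosome genes were highest. The part of these tissues in the desmosome levels was not tested.

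**Figure D3:**
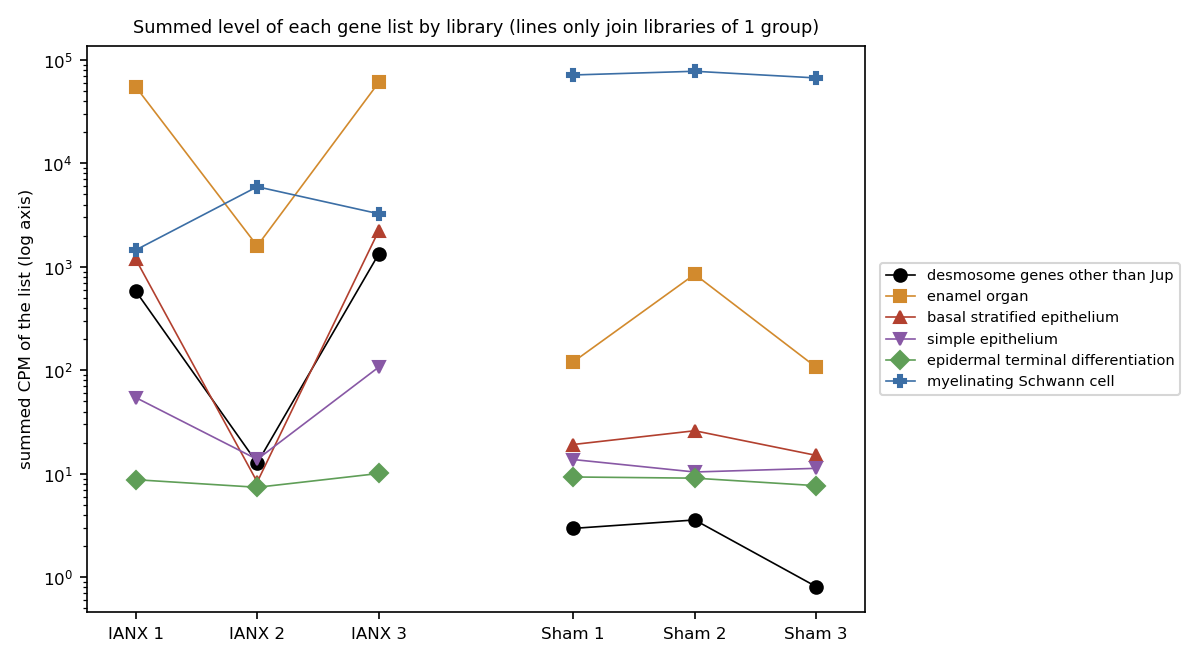
Summed TMM-normalized CPM of 6 gene lists on a log axis, in IANX 1, 2 and 3 on the left and Sham 1, 2 and 3 on the right. Lines join libraries of a group only to help the eye. The desmosome genes other than Jup (583, 12.7 and 1332 CPM in IANX, 2.97, 3.58 and 0.812 CPM in Sham) are shown beside the enamel, basal, simple epithelial, terminal differentiation and myelin lists.

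The remaining desmosome genes were looked at from a list that did not hold the 10. Of 7 matched genes 4 were tested, of which 1 was higher (background 17.8% of all tested genes), 1 was lower (background 16.6%) and 2 did not pass, with a median log2 fold change of 0.82. Evpl, whose product envoplakin joins the desmosome to the cornified envelope, was higher at 23.1, 1.96 and 43.1 CPM in IANX 1, 2 and 3, against 2.35, 1.67 and 2.22 CPM in Sham 1, 2 and 3 (log2 fold change 3.44 ± 0.95, edgeR adjusted p = 0.0283), although IANX 2 lay within the Sham range. Kazn, which encodes the periplakin-binding protein kazrin, was lower, at 14.2, 8.06 and 10.5 CPM in IANX against 63.7, 44.8 and 70.1 CPM in Sham (-2.45 ± 0.27, edgeR adjusted p = 0.00119). Pkp4 (log2 fold change 1.37, edgeR adjusted p = 0.0635) and Ppl (0.26, 0.721) did not pass. Dsc1, the desmocollin of the upper epidermis, had 4, 3 and 19 reads in IANX and 0 in each Sham library, Pkp2 was at 1.13 CPM or lower, and Dsg4, which serves hair, was at 0 in all 6 libraries. Evpl did not pass without IANX 3 or without any single Sham library (edgeR adjusted p up to 0.12), and Kazn passed without each library. The count of higher genes was 2 without IANX 2, 0 without IANX 3, Sham 2 or Sham 3, and 1 without Sham 1, where the gene was not Evpl.

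Hemidesmosomes fasten the basal side of epithelial cells to laminin and also use keratin filaments. Of 7 tested genes 2 were higher (background 17.8% of all tested genes), 4 lower (background 16.6%) and 1 did not pass. Their median log2 fold change was -1.34. The genes that were higher are Lamb3, which encodes a laminin chain of the basement membrane, and Col17a1, the collagen of the hemidesmosome. Lamb3 had 255, 7.52 and 401 CPM in IANX 1, 2 and 3, against 2.28, 6.5 and 1.92 CPM in Sham 1, 2 and 3 (log2 fold change 5.97 ± 1.34, edgeR adjusted p = 0.0145). Col17a1 had 159, 3.27 and 239 CPM in IANX, against 1.38, 2.83 and 1.70 CPM in Sham (6.09 ± 1.38, edgeR adjusted p = 0.0146). The integrin genes Itgb4 (-2.37 ± 0.29, edgeR adjusted p = 0.00173) and Itga6 (-1.54 ± 0.27, 0.00581) and the plakin gene Plec (-1.34 ± 0.20, 0.00365) were lower, and these serve Schwann and perineurial cells as well. Itgb4 was at 229, 422 and 417 CPM in IANX, against 1913, 1954 and 1651 CPM in Sham. The higher calls were lost without any single Sham library, when 0 genes of the list were higher, and the lower calls numbered 3 without IANX 3 or Sham 2.

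Adherens junctions share plakoglobin with desmosomes. Of 11 tested genes 3 were higher (background 17.8% of all tested genes), none was lower (background 16.6%) and 8 did not pass. Their median log2 fold change was 0.98. Ctnnb1, which encodes beta-catenin, the close relative of plakoglobin, was higher at 548, 450 and 561 CPM in IANX against 338, 175 and 235 CPM in Sham (1.06 ± 0.26, edgeR adjusted p = 0.0199). Mllt4, which encodes afadin (2.61 ± 0.49, 0.00798), and Pvrl3, which encodes nectin-3 (1.46 ± 0.40, 0.0275), were also higher. Cdh1, which encodes E-cadherin, did not pass and had 129, 19.3 and 319 CPM in IANX, against 372, 447 and 402 CPM in Sham (-1.38 ± 0.79, edgeR adjusted p = 0.208). Every IANX library was thus below every Sham library for E-cadherin, and IANX 2 was the lowest of the 6. The desmosome genes were selected on this contrast, so nothing is read from setting E-cadherin beside them. Cdh3, which encodes P-cadherin, was below the filter and had 38.9, 0.490 and 54.9 CPM in IANX and 0.414, 0.167 and 0.369 CPM in Sham, a pattern noticed after its values were seen. The count of higher genes was 8 without IANX 2, 2 without IANX 1 or Sham 1, and 1 without IANX 3, Sham 2 or Sham 3, and Mllt4 passed without each library.

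Of 10 tested tight junction genes 1 was higher, none was lower and 9 did not pass, with a median log2 fold change of 0.27. The background over all tested genes was 17.8% higher and 16.6% lower. At an unadjusted edgeR p under 0.05, 1 tight junction gene was lower, and DESeq2 called 1 lower after adjustment. Ocln, which encodes occludin, was higher (log2 fold change 1.39 ± 0.42, edgeR adjusted p = 0.0380). Cldn3, Cldn7, Cldn23 and Cgn were below the filter. Ocln did not pass without IANX 3 or without any single Sham library, when no gene of the list was higher, 5 genes were higher without IANX 2, and 1 was lower without IANX 1.

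Keratins are the filaments that desmoplakin holds. Of 11 tested keratin genes 6 were higher (background 17.8% of all tested genes), 1 lower (background 16.6%) and 4 did not pass. Their median log2 fold change was 1.96. Some of the higher keratins, such as Krt18 with 1, 1 and 2 reads in Sham, passed the filter through their IANX reads only. These could hardly have been called lower. Krt14, a keratin of basal cells, had 314, 1.58 and 630 CPM in IANX 1, 2 and 3 and 0.828, 1.17 and 0.222 CPM in Sham 1, 2 and 3 (8.74 ± 1.96, edgeR adjusted p = 0.0143). Its partner Krt5 had 651, 2.4 and 1252 CPM in IANX and 16.1, 21.1 and 12.0 CPM in Sham (5.28 ± 1.63, edgeR adjusted p = 0.0416), with IANX 2 below every Sham library. Krt80 (4.39 ± 1.37, 0.0428) and Krt18 (5.59 ± 1.02, 0.00711) were higher, and Krt19 was lower (-2.42 ± 0.62, 0.0228). Krt17 was below the filter, with 304, 0.545 and 876 CPM in IANX and 0.583 CPM or lower in Sham, and was named after its values were seen. The count of higher keratins was 8 without IANX 2, 3 without IANX 1, 2 without IANX 3 and 1 without any single Sham library. Krt18 passed without each library, and Krt19 did not pass without IANX 1, Sham 1 or Sham 2.

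Of 6 tested epithelial transcription factors and splicing regulators 4 were higher, none was lower and 2 did not pass, with a median log2 fold change of 2.50. Over all tested genes 17.8% were higher and 16.6% lower. Of the 13 matched genes 7 were below the filter. Tfap2c passed the filter through its IANX reads only, so it could hardly have been called lower. Nothing is therefore read from this count beside the background. Tfap2a, which encodes an AP-2 factor, had 18.5, 3.70 and 14.6 CPM in IANX, against 0.898, 1.75 and 0.886 CPM in Sham (3.38 ± 0.65, edgeR adjusted p = 0.0083). Tfap2c, another AP-2 gene (4.26 ± 0.78, edgeR adjusted p = 0.00699, with 33, 18 and 33 reads in IANX and 1, 2 and 0 in Sham), Esrp2, an epithelial splicing regulator (3.96 ± 1.24, 0.0440), and Grhl3, a Grainyhead-like factor (1.61 ± 0.39, 0.0189), were higher. Grhl3 was highest in IANX 2, with 3.74, 6.48 and 3.44 CPM in IANX 1, 2 and 3, unlike the desmosome genes. Tp63, which encodes p63, was below the filter, with 60.2, 0.545 and 112 CPM in IANX and 0.552, 0.167 and 0.443 CPM in Sham. The count of higher genes was 8 without IANX 2 and 2 without any single Sham library, and Tfap2a and Tfap2c passed without each library.

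Snail, Zeb, Twist and Prrx factors repress epithelial junction genes or mark mesenchyme. Of 7 tested genes 3 were higher (background 17.8% of all tested genes), none was lower (background 16.6%) and 4 did not pass. Their median log2 fold change was 1.28. Snai2, which represses cadherin genes, had 40.0, 16.4 and 21.2 CPM in IANX and 6.83, 4.58 and 5.61 CPM in Sham (2.18 ± 0.37, edgeR adjusted p = 0.00536). Snai1 (1.49 ± 0.29, 0.0085) and Prrx1 (1.28 ± 0.39, 0.0393) were higher too, and Snai1 and Snai2 passed without each library. The count was 4 without Sham 1 and 2 without IANX 3, Sham 2 or Sham 3. In the adherens junction list and both lists of transcription factors, 0 genes were lower at an unadjusted edgeR p under 0.05 and 0 with DESeq2.

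**Figure D4:**
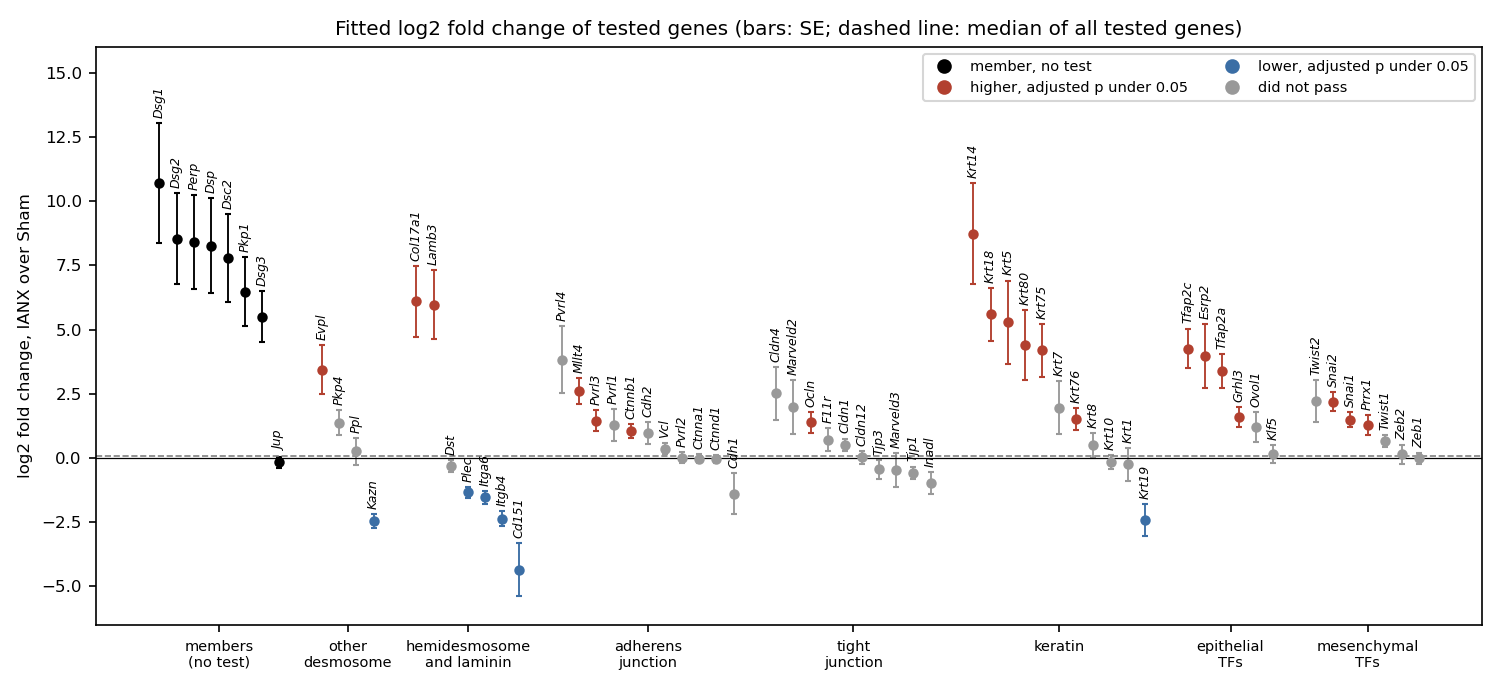
Fitted log2 fold change, IANX over Sham, of the 8 tested desmosome genes (black, no test) and of the tested genes of 7 lists, with SE bars. Red points were higher and blue points lower at an adjusted p under 0.05, grey points did not pass, and the dashed line is the median of all tested genes (0.08). Of the desmosome genes, 7 lie between 5.50 and 10.71, where the value of Dsg1 rests on 1 Sham read and depends on the prior count, while Jup lies at -0.16 (0.30 with library sizes only). Dsc3 and Pkp3 have no point because they were below the filter.

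The genes whose pattern was most like that of the desmosome genes were ranked by the Pearson correlation of log2 CPM with the mean log2 CPM of the 10 over the 6 libraries, among 11719 other genes with at least 5 CPM on average. The libraries fall into groups, so such a correlation only describes how the libraries lie relative to each other. It does not measure the size of the change. The closest 10 were Cdh23, Vangl2, Plek2, Bend5, Slc39a14, Lama1, Tesc, RGD1561161, Mpzl2 and P4ha2, at 0.996 to 0.999. Cdh23, a cadherin of the hair cells of the ear, had 19.4, 4.30 and 26.7 CPM in IANX 1, 2 and 3 and 2.55, 3.0 and 2.44 CPM in Sham 1, 2 and 3. Vangl2, which serves planar polarity in epithelia, had 50.7, 3.38 and 75.9 CPM in IANX and 1.59, 1.67 and 1.33 CPM in Sham. Mpzl2, an epithelial adhesion gene, had 113, 7.46 and 166 CPM in IANX and 3.73, 3.0 and 1.62 CPM in Sham. Jup had a correlation of 0.096 with the same mean, of which it is itself a part.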

How the data were processed

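The authors purified poly-A RNA, made NEBNext Ultra libraries, aligned the reads with HISAT2 2.0.5 to rn6, assembled further transcripts with StringTie 1.3.3b and deposited raw counts per gene from featureCounts 1.5.0-p3, together with FPKM values computed by the authors from those counts and the deposited gene length. The FPKM imply library sizes of 17397185 to 18296397 in IANX and 11802989 to 14372564 in Sham, which are not the total counts, so they were scaled by normalized sizes. Which annotation release was used, whether counting used strand and how reads with several alignments were handled are not given in the sources used here. The deposited columns of the authors' own comparison (DESeq2 1.20.0 mean counts, log2 fold changes and p-values) were not used. The label's word for the operation differs from transection, and the groups follow the sample titles and the described surgery.

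From the counts, edgeR 4.0.16 under R 4.3.3 kept genes by filterByExpr, scaled by TMM and tested IANX against Sham with condition as sole term (two-sided glmQLFit and glmQLFTest, Benjamini-Hochberg adjustment over all 15374 tested genes, call at an adjusted p under 0.05). Values after ± are the SE of the log2 fold change where a fold is given, its size over the square root of F, and the SD over libraries where a CPM is given. CPM of genes below the filter use the same library sizes. The desmosome genes and all lists were chosen with earlier results of these data known. Of 79 list genes 76 matched by symbol, with Cdsn among those not matched, and some further genes of the lists are not reported here and are in no count or sum. Named list genes are the called ones, up to 4 a list by mean CPM, and any that went against its list, and Cd151 is given only in the plot of fold changes. The fits were tested on simulated counts with the same low spread in both groups and changes only in well-read genes. That setting does not cover genes near 0 reads in Sham or with a wide spread in IANX. Alternatives were DESeq2 1.42.0, RLE factors, library sizes only, no filter, each library left out, the replicate number as a block, limma 3.58.1 on log2(FPKM + 1) and log2(FPKM + 0.1), a prior count of 2, and IANX 2 alone.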

Additional observations from a re-analysis of the deposited data

How the results depend on the processing

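The median log2 ratio of the desmosome genes (8.07) was 6.75 to 8.62 when each library was left out in turn and 2.21 with IANX 2 alone. Their median fitted log2 fold change was 2.70 on log2(FPKM + 1) and 4.75 on log2(FPKM + 0.1). These 2 values compare means of logs and are no ratio of means. The pseudocount also understates the change of low genes by construction. DESeq2, the block and the prior count likewise give no ratio of means, and no median is given for them. No named gene that passed the test and no tested desmosome gene other than Jup reversed direction under any alternative run. Over all genes, 2734 were higher and 2550 lower. With library sizes only they were 5919 and 1468, with the median of all tested genes at 0.53 in place of 0.08. Leaving out each library gave 961 to 3712 higher (961 without Sham 3, 1029 without Sham 2, 1554 without Sham 1, 1713 without IANX 3 and 3712 without IANX 2) and 1494 to 3504 lower (1494 without Sham 3, 1571 without Sham 2 and 3504 without IANX 2). The 7 lists held 20 higher genes, 12 on log2(FPKM + 1), and 6 to 36 without each library (36 without IANX 2, 10 without IANX 3 or Sham 1 and 6 without Sham 2 or Sham 3), and 6 lower genes (4 to 6).

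By list, the higher genes among other desmosome genes were 2 with DESeq2 or library sizes only, 0 on either FPKM scale and 0 to 2 without each library. Hemidesmosome genes were 1 on either FPKM scale and 0 to 2 without each library, with 3 to 4 lower. Adherens junction genes were 6 with library sizes only, 5 with no filter and 1 to 8 without each library. Tight junction genes were 2 with DESeq2, 3 with library sizes only, 0 on either FPKM scale and 0 to 5 without each library, and their lower genes were 1 with DESeq2 and 0 to 1 without each library. Keratins were 2 on log2(FPKM + 1) and 1 to 8 without each library, with 0 to 1 lower. Epithelial factors were 7 with no filter and 2 to 8 without each library, and mesenchymal factors 5 with library sizes only and 2 to 4 without each library. The causes were not tested.

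Deviations of same-numbered IANX and Sham libraries were weakly correlated (0.086, -0.014 and 0.075). With 3 libraries per group such values cannot decide whether the numbers pair the libraries. With the replicate block 11 list genes were higher, with 0 among hemidesmosome genes and 1 among keratins, and 1 tight junction gene was lower. Over all genes 2175 were higher and 2299 lower. By the same deviations, IANX 1 and IANX 3 correlated best with the Sham library of their own number, and IANX 2 with Sham 3 (0.047).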

Other observations

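Other genes of the chromosome 18 cadherin cluster were looked at after the values of the desmosome genes were seen. Cdh2, which encodes N-cadherin and is near Dsc3 in the RefSeq order, had 90.6, 25.5 and 44.0 CPM in IANX 1, 2 and 3 and 33.8, 24.4 and 23.2 CPM in Sham 1, 2 and 3, and did not pass the test (log2 fold change 0.98 ± 0.43, edgeR adjusted p = 0.118). B4galt6, an enzyme of glycolipid synthesis beyond Dsg2, had 42.4, 35.3 and 41.1 CPM in IANX and 22.4, 25.6 and 32.6 CPM in Sham (0.56 ± 0.18, edgeR adjusted p = 0.0512). Ttr, the transthyretin gene next to Dsg2, had 1, 4 and 1 reads in IANX and 0, 2 and 0 reads in Sham. Genes next to the cluster thus lacked the near-silent level in Sham or the high level in IANX 1 and IANX 3. Without IANX 2, Cdh2 (edgeR adjusted p = 0.0133) and B4galt6 (0.0371) passed. Over 13 alternatives the adjusted p was 0.0133 to 0.39 for Cdh2, of which 2 passed, and 0.00844 to 0.153 for B4galt6, of which 3 passed.

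Krt4 and Krt13, the keratin pair of the suprabasal cells of oral and esophageal epithelium, were read almost only in IANX 2, the library with the fewest desmosome reads among the injured nerves. Krt4 had 0.0566, 33.3 and 0.237 CPM in IANX 1, 2 and 3 and 0.0690, 0.250 and 0.295 CPM in Sham 1, 2 and 3. Krt13 had 0.170, 37.2 and 0 CPM in IANX and 0, 0.750 and 0.0738 CPM in Sham. Both were below the filter and were chosen after their values were seen.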
